A study of Mus musculus with 23 samples.

Results

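Arginine handling in lipopolysaccharide (LPS)-treated macrophages was followed through 10 genes: the nitric oxide synthase *Nos2*, its helpers *Gch1* and *Ass1*, the arginases *Arg1* and *Arg2*, the cationic amino acid transporters *Slc7a1* and *Slc7a2*, and the heterodimeric carriers *Slc7a5* and *Slc7a11* with their shared heavy chain *Slc3a2*. The genes were chosen by name, and the probes were those whose accession leads to one of these names. They were measured by 13 of the 33391 probes with an accession, and they are 10 of the 26512 genes that these probes name. All 10 entered the tests, since no filter on low signals was used. Where a gene had several probes, the one with the largest LPS induction in wt BMDM was taken, so that for *Gch1*, *Ass1* and *Slc7a5* this induction had a part in the choice of the probe.

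Macrophages use arginine in competing ways. NOS2 turns it into nitric oxide and citrulline with tetrahydrobiopterin as cofactor, ASS1 starts the way back from citrulline to arginine, and the arginases split it into ornithine and urea. Arginine enters the cell through the carriers of the CAT family, whereas the xCT carrier made of SLC7A11 and SLC3A2 takes up cystine for glutathione in exchange for glutamate.

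BMDM, macrophages grown from the bone marrow of male mice with M-CSF for 9 days, came from C57BL/6 animals of 3 genotypes. These were wild-type (wt) littermates, MK2-/- mice without the kinase MK2, and MK2/3-/- mice without MK2 and MK3, kinases that act downstream of p38 MAPK. The cells received 100 ng/ml LPS or medium alone for 120 min, and the mice were 10 to 14 weeks old. Of the 6 groups 5 were measured on 4 arrays and 1, the MK2-/- cells in medium, on 3. Each array carried total RNA of a single sample. The deletions are present in all cells of the animals, so that a change could have arisen before the cells were put in culture. Signals are given as log2 of the normalised spot intensity, and the level of a gene is never set against that of another, as probes differ in brightness.

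Every array had between 47.5% and 69.0% of its probes well above background, both extremes being MK2/3-/- arrays in medium. Each genotype lay on a slide of its own, so that genotype and slide cannot be told apart. Within each slide, medium arrays occupied 1 row and LPS arrays the other, and treatment and slide row cannot be told apart either. The names of the arrays carry a letter, a, b, c or e, that runs through all genotypes and matches the column of the slide. Arrays of the same genotype and letter share the age label of the mouse and were taken as 1 culture, and 11 cultures had both treatments. *Mapkapk2*, which encodes MK2, had a signal in medium that fell short of wt by 3.31 on the log2 scale in MK2-/- BMDM (limma, adjusted p = 5.87e-06), and *Mapkapk3*, which encodes MK3, by 1.62 in MK2/3-/- cells (limma, adjusted p = 5.87e-05). After LPS the *Mapkapk2* difference of MK2-/- from wt BMDM was -2.81 (limma, adjusted p = 2.45e-05). A *Mapkapk2* signal well above background remained in MK2-/- BMDM and rose by 3.05 with LPS. Its mean there was 11.96 after LPS, and that of wt in medium was 12.22. All 7 measured macrophage markers (*Adgre1*, *Itgam*, *Csf1r*, *Lyz2*, *Mertk*, *Fcgr1* and *Cd14*) were well above background on all 23 arrays, whereas of 4 T cell markers *Cd3e* was so on all 23, *Cd4* on 10, and *Cd3d* and *Cd8a* on none.

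LPS raised the same 5 genes in each genotype: *Nos2*, *Gch1*, *Arg2*, *Slc7a2* and *Slc7a11*. In MK2/3-/- BMDM *Slc3a2* rose as well. No gene of the 10 fell, whereas 8.78%, 9.98% and 12.8% of all genes did in wt, MK2-/- and MK2/3-/- cells. Over all 26512 genes tested, 8.16%, 8.41% and 11.9% rose in wt, MK2-/- and MK2/3-/- BMDM, whereas of the 10 it was 5, 5 and 6 (limma, Benjamini-Hochberg adjusted p below 0.05). The median difference of the 10 genes was 1.44, 1.88 and 1.78 on the log2 scale in this order of genotypes, and that of all genes was 0.01, -0.01 and -0.02. All LPS arrays lay above all medium arrays for 5 of the 10 genes in wt and for 6 in either knockout, which was so for 11.3%, 16% and 11.8% of all genes. The mean log2 signal of 4 dendritic cell markers (*Flt3*, *Zbtb46*, *Xcr1* and *Ccr7*) also went up with LPS, with ranges of 3.79-5.25 in medium and 6.46-7.19 after LPS in wt, 4.75-5.68 and 6.53-7.93 in MK2-/-, and 4.16-5.38 and 6.60-6.80 in MK2/3-/- cells. *Flt3* was well above background on 23 arrays, *Zbtb46* and *Ccr7* on 22 and *Xcr1* on 1, and the part of such cells in the LPS responses was not tested. As RNA of whole cultures was measured, more cells with a transcript and more transcript per cell cannot be told apart.

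**Figure D1:**
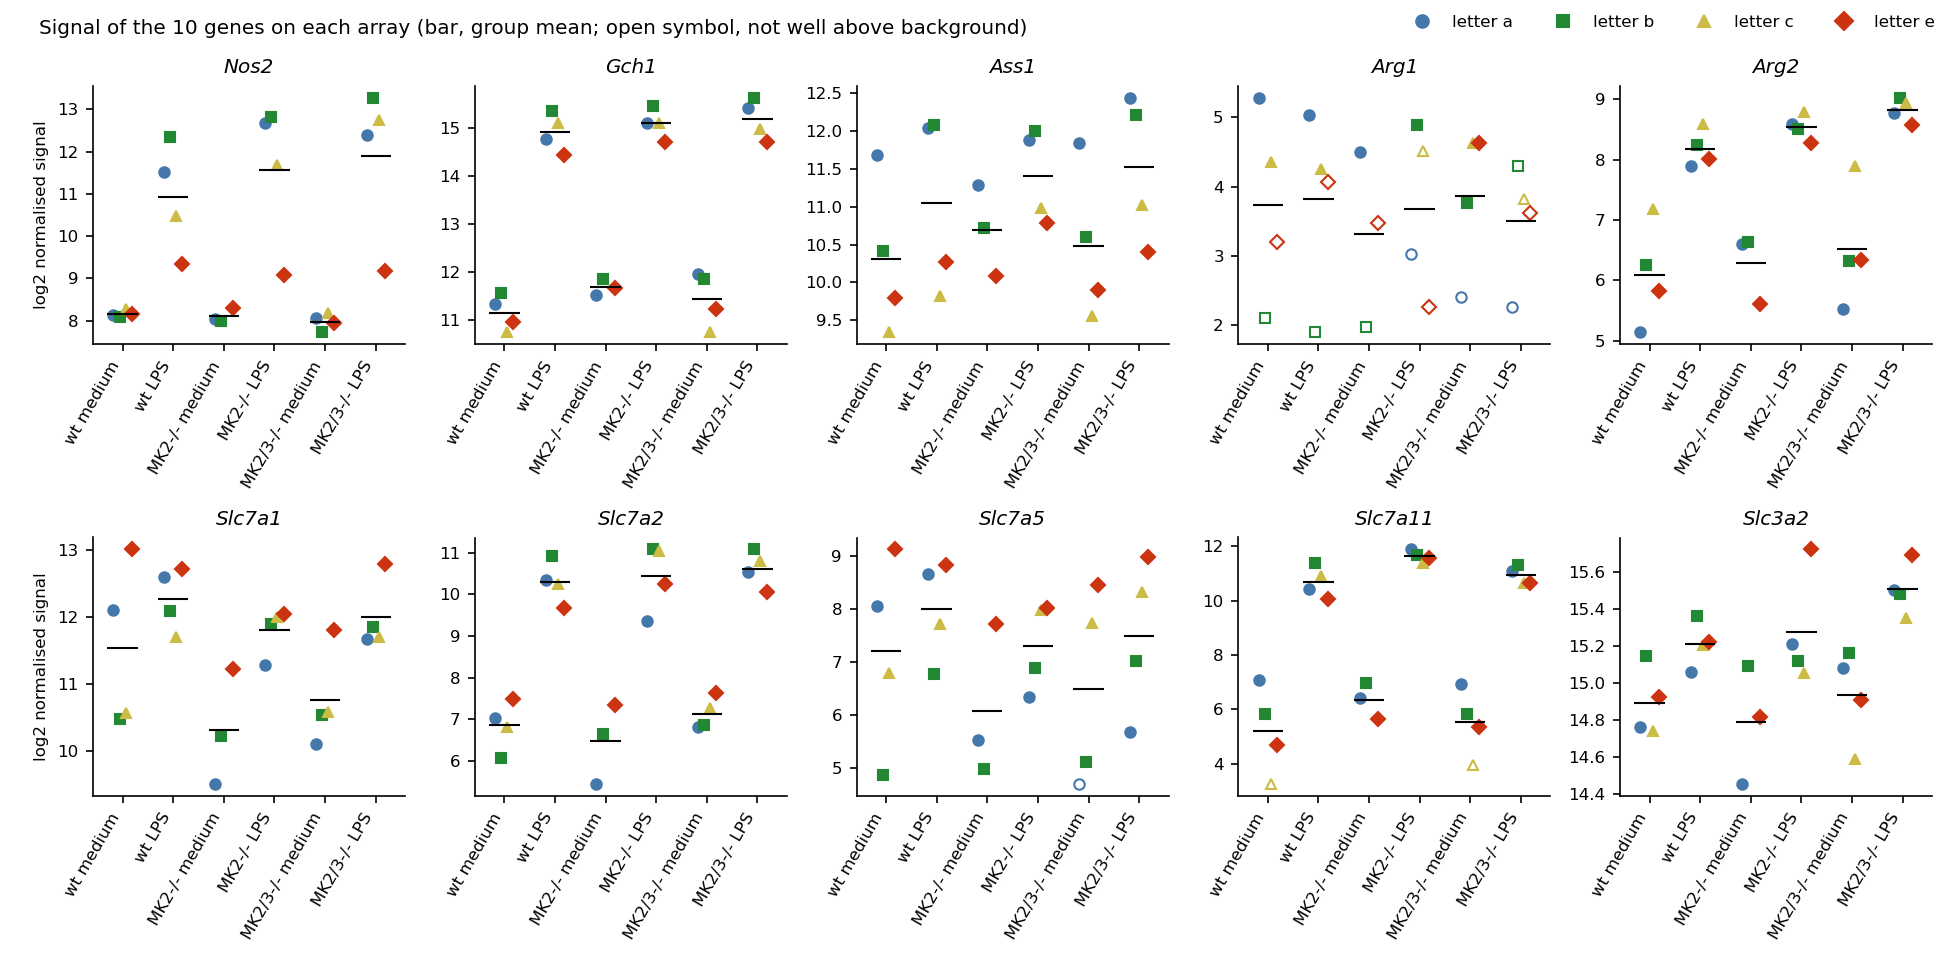
Log2 normalised signal (vertical axis) of the 10 genes on each of the 23 arrays, by genotype and treatment (horizontal axis). Symbols and colours give the letter of the array, bars the group mean, and open symbols signals not well above background. *Nos2* after LPS lay between 9.08 and 9.34 on the arrays with the letter e and between 10.49 and 13.28 on the others.

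*Nos2*, the inducible nitric oxide synthase (NM_010927, GRCm38.p6 chromosome 11, 78920787 to 78960226), was measured by 1 probe in 2 spots that was well above background on all arrays. In medium its log2 signal was 8.13, 8.09, 8.29 and 8.15 in wt, 8.04, 7.98 and 8.31 in MK2-/-, and 8.06, 7.72, 8.18 and 7.94 in MK2/3-/- cells. After LPS it was 11.51, 12.35, 10.49 and 9.34 in wt, 12.68, 12.81, 11.70 and 9.08 in MK2-/-, and 12.39, 13.28, 12.75 and 9.17 in MK2/3-/- cells. All arrays after LPS were above all arrays in medium, and the last value of each LPS group, which is the array with the letter e, was the lowest. The rise was 2.76 ± 0.81 (SE) in wt (limma, adjusted p = 0.0227), 3.45 ± 0.88 without MK2 (adjusted p = 0.00784) and 3.92 ± 0.81 without both kinases (adjusted p = 0.00112), that is 6.76-, 10.9- and 15.1-fold. Within the cultures of the letter e the difference between LPS and medium was 1.18, 0.77 and 1.23 for wt, MK2-/- and MK2/3-/- cells, and it was 2.20 to 5.55 in the other 8 cultures. These cultures also had the smallest response of their genotype over the 688 genes induced at least 2 log2 units in wt BMDM: the median was 2.69, 2.87 and 2.79 in those of the letter e, and 2.80 to 3.62 in the others. Without the arrays of the letter e the rise of *Nos2* was 3.28, 4.38 and 4.81. The call in wt BMDM was lost without the first LPS array (adjusted p = 0.0616) or without the second (adjusted p = 0.0924).

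*Gch1*, which encodes GTP cyclohydrolase and thereby the entry into tetrahydrobiopterin synthesis (NM_008102, chromosome 14, 47153895 to 47189413), had log2 signals of 11.34, 11.55, 10.75 and 10.96 in wt BMDM in medium and of 14.76, 15.34, 15.10 and 14.43 after LPS. Without MK2 it went from 11.52, 11.85 and 11.66 to 15.10, 15.46, 15.11 and 14.71. In MK2/3-/- BMDM it went from 11.96, 11.85, 10.74 and 11.22 to 15.41, 15.63, 14.98 and 14.72. The lowest LPS array of each genotype was above its highest medium array by more than 2 log2 units. The rise was 3.76 ± 0.28 (SE) in wt (adjusted p = 6.80e-09), 3.42 ± 0.30 without MK2 (adjusted p = 7.85e-08) and 3.74 ± 0.28 without both kinases (adjusted p = 5.74e-09), each by limma. Among the 11 cultures it ranged from 3.05 to 4.35. The other probe of *Gch1* rose by 2.96, 2.68 and 2.73 in the order of the genotypes (limma, adjusted p at most 3.70e-07).

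*Ass1*, argininosuccinate synthase (NM_007494, chromosome 2, 31470270 to 31520670), did not pass the test in any genotype. Its log2 signal in wt BMDM was 11.69, 10.42, 9.34 and 9.79 in medium and 12.04, 12.07, 9.82 and 10.26 after LPS. The LPS arrays of the letters c and e were thus below the medium arrays of the letters a and b in this genotype. In MK2-/- BMDM it was 11.28, 10.72 and 10.08 in medium and 11.87, 12.00, 10.98 and 10.79 after LPS, and in MK2/3-/- cells 11.85, 10.59, 9.56 and 9.90 in medium and 12.44, 12.21, 11.02 and 10.40 after LPS. The groups overlapped as wholes, whereas within each of the 11 cultures the LPS array was higher, by 0.36 to 1.66. The fitted difference was 0.74 (95% interval -0.59 to 2.07) in wt, 0.71 (-0.72 to 2.15) in MK2-/- and 1.04 (-0.29 to 2.37) in MK2/3-/- cells, with adjusted p from 0.265 to 0.570 (limma). With the letter as a block it passed in MK2-/- (0.98; limma, adjusted p = 0.0203) and in MK2/3-/- cells (1.04; adjusted p = 0.00613). Its second probe gave 0.63, 0.53 and 0.84.

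Of the arginases, the mitochondrial *Arg2* rose and *Arg1*, the cytosolic enzyme of the liver and of alternatively activated macrophages, stayed close to background. *Arg2* (NM_009705, chromosome 12, 79130788 to 79156301) had log2 signals of 5.14, 6.25, 7.18 and 5.82 in wt BMDM in medium and of 7.89, 8.24, 8.59 and 8.01 after LPS. Without MK2 it was 6.61, 6.64 and 5.60 in medium and 8.58, 8.52, 8.80 and 8.27 after LPS. In MK2/3-/- BMDM it was 5.53, 6.32, 7.90 and 6.33 in medium and 8.77, 9.03, 8.93 and 8.58 after LPS. The groups did not overlap within any genotype, and the LPS arrays lay much closer together (SD 0.20 to 0.31) than the medium arrays (SD 0.59 to 0.99). The rise was 2.09 ± 0.42 (SE; limma, adjusted p = 0.00122) in wt, 2.26 ± 0.45 (adjusted p = 0.00112) in MK2-/- and 2.31 ± 0.42 (adjusted p = 0.000319) in MK2/3-/- cells.

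*Arg1* (NM_007482, chromosome 10, 24915207 to 24927470) was well above background on 9 of the 23 arrays. In wt BMDM its log2 signal was 5.28, 2.10, 4.36 and 3.19 in medium and 5.03, 1.90, 4.26 and 4.07 after LPS. It was not well above background on any of the 4 MK2/3-/- arrays after LPS, where it lay between 2.27 and 4.29, so that only a bound is known there. The fitted differences between LPS and medium were 0.08, 0.36 and -0.36 in wt, MK2-/- and MK2/3-/- BMDM (limma, adjusted p from 0.824 to 0.980). At this brightness no change of *Arg1* was detectable.

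The transporter of arginine that rose was *Slc7a2*, which encodes CAT2 and whose product supplies NOS2 with arginine in activated macrophages. *Slc7a2* (NM_007514, chromosome 8, 40862341 to 40922070) had log2 signals of 7.03, 6.08, 6.83 and 7.49 in wt BMDM in medium and of 10.34, 10.92, 10.24 and 9.69 after LPS. In MK2-/- BMDM it went from 5.45, 6.64 and 7.35 to 9.36, 11.09, 11.04 and 10.26, and in MK2/3-/- cells from 6.81, 6.85, 7.26 and 7.62 to 10.55, 11.08, 10.80 and 10.06. All LPS arrays were above all medium arrays. The rise was 3.44 ± 0.43 (SE; limma, adjusted p = 7.12e-06) in wt, 3.96 ± 0.46 (adjusted p = 3.10e-06) in MK2-/- and 3.49 ± 0.43 (adjusted p = 4.13e-06) in MK2/3-/- cells. In every genotype the smallest rise was that of the culture of the letter e.

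*Slc7a1*, which encodes the constitutive arginine carrier CAT1 (NM_007513, chromosome 5, 148327410 to 148399904), had log2 signals of 12.10, 10.48, 10.56 and 13.02 in wt BMDM in medium and of 12.60, 12.08, 11.70 and 12.72 after LPS. The groups overlapped in wt BMDM and in MK2/3-/- cells (10.09, 10.54, 10.57 and 11.80 in medium, 11.67, 11.85, 11.71 and 12.79 after LPS). Without MK2 they did not (9.50, 10.21 and 11.22 in medium, 11.28, 11.89, 12.00 and 12.05 after LPS). The fitted difference was 0.73 ± 0.51 (SE) in wt, 1.50 ± 0.55 in MK2-/- and 1.25 ± 0.51 in MK2/3-/- cells and did not pass the test (limma, adjusted p = 0.410, 0.0669 and 0.0834). With the culture as a block 5 of the 10 genes rose in wt and 7 in either knockout, compared with 10.2%, 10.8% and 14.7% of all genes, and both knockout values of *Slc7a1* passed (adjusted p = 0.0233 and 0.0280). Of the 11 cultures 10 had a higher signal after LPS, the exception being the wt culture of the letter e with -0.30.

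The largest LPS response among the 10 genes was that of *Slc7a11*, the cystine-carrying light chain of xCT (NM_011990, chromosome 3, 50364936 to 50499087). Its log2 signal in wt BMDM was 7.09, 5.82, 3.26 and 4.68 in medium and 10.44, 11.39, 10.92 and 10.07 after LPS. In MK2-/- BMDM it was 6.41, 6.97 and 5.66 in medium and 11.90, 11.68, 11.39 and 11.56 after LPS. In MK2/3-/- BMDM it was 6.94, 5.83, 3.96 and 5.34 in medium and 11.11, 11.33, 10.63 and 10.66 after LPS. The LPS arrays were more alike than the medium arrays, of which the third in wt and the third in MK2/3-/- cells were not well above background. The rise was 5.49 ± 0.63 (SE; limma, adjusted p = 2.93e-06) in wt, 5.29 ± 0.68 (adjusted p = 1.18e-05) in MK2-/- and 5.42 ± 0.63 (adjusted p = 2.40e-06) in MK2/3-/- cells. In wt and in MK2/3-/- cells it rests on 3 of 4 medium arrays with a measured signal, and without the dim array the rise was 4.84 and 4.89. From culture to culture it varied between 3.35 and 7.66.

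The heavy chain *Slc3a2* (NM_008577, chromosome 19, 8706882 to 8723369), without which neither light chain reaches the cell surface, changed little in comparison. In wt BMDM it was 14.76, 15.14, 14.74 and 14.93 in medium and 15.06, 15.36, 15.21 and 15.22 after LPS. MK2-/- BMDM had 14.46, 15.09 and 14.82 in medium and 15.21, 15.12, 15.05 and 15.72 after LPS. In MK2/3-/- BMDM it was 15.08, 15.16, 14.59 and 14.91 in medium and 15.50, 15.48, 15.35 and 15.69 after LPS. Only in the latter did the groups stand apart, and only there did the rise pass the test, with 0.57 ± 0.17 (SE; limma, adjusted p = 0.0169), compared with 0.49 ± 0.18 (adjusted p = 0.0725) in MK2-/- and 0.32 ± 0.17 (adjusted p = 0.246) in wt BMDM. The difference in response between MK2/3-/- and wt BMDM was 0.25 (95% interval -0.25 to 0.75; limma, adjusted p = 1.00). With the culture as a block the MK2-/- value passed too (adjusted p = 0.0286), and without the third MK2/3-/- medium array the MK2/3-/- value did not (adjusted p = 0.0725). The signal after LPS was higher in all 11 cultures, by 0.03 to 0.90.

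*Slc7a5*, which encodes the large neutral amino acid carrier LAT1 (NM_011404, chromosome 8, 121881146 to 121907686), varied widely within groups. In wt BMDM it was 8.06, 4.86, 6.81 and 9.14 in medium and 8.67, 6.78, 7.72 and 8.83 after LPS. MK2-/- BMDM had 5.53, 4.98 and 7.71 in medium and between 6.35 and 8.03 after LPS, and in MK2/3-/- cells 4.70, 5.11, 7.74 and 8.46 in medium and 5.68, 7.02, 8.32 and 8.98 after LPS. The groups overlapped in every genotype, although 10 of the 11 cultures had a higher signal after LPS. The fitted differences of 0.78 ± 0.98 (SE), 1.24 ± 1.06 and 1.00 ± 0.98 did not pass the test (limma, adjusted p from 0.507 to 0.710). Its second probe lay between 5.98 and 7.11 on all arrays and gave differences of 0.25, 0.28 and 0.25 that did not pass either (adjusted p from 0.439 to 0.511). The probes of *Slc7a5* thus disagreed in how much the gene varied, whereas those of *Gch1* and *Ass1* moved alike.

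**Figure D2:**
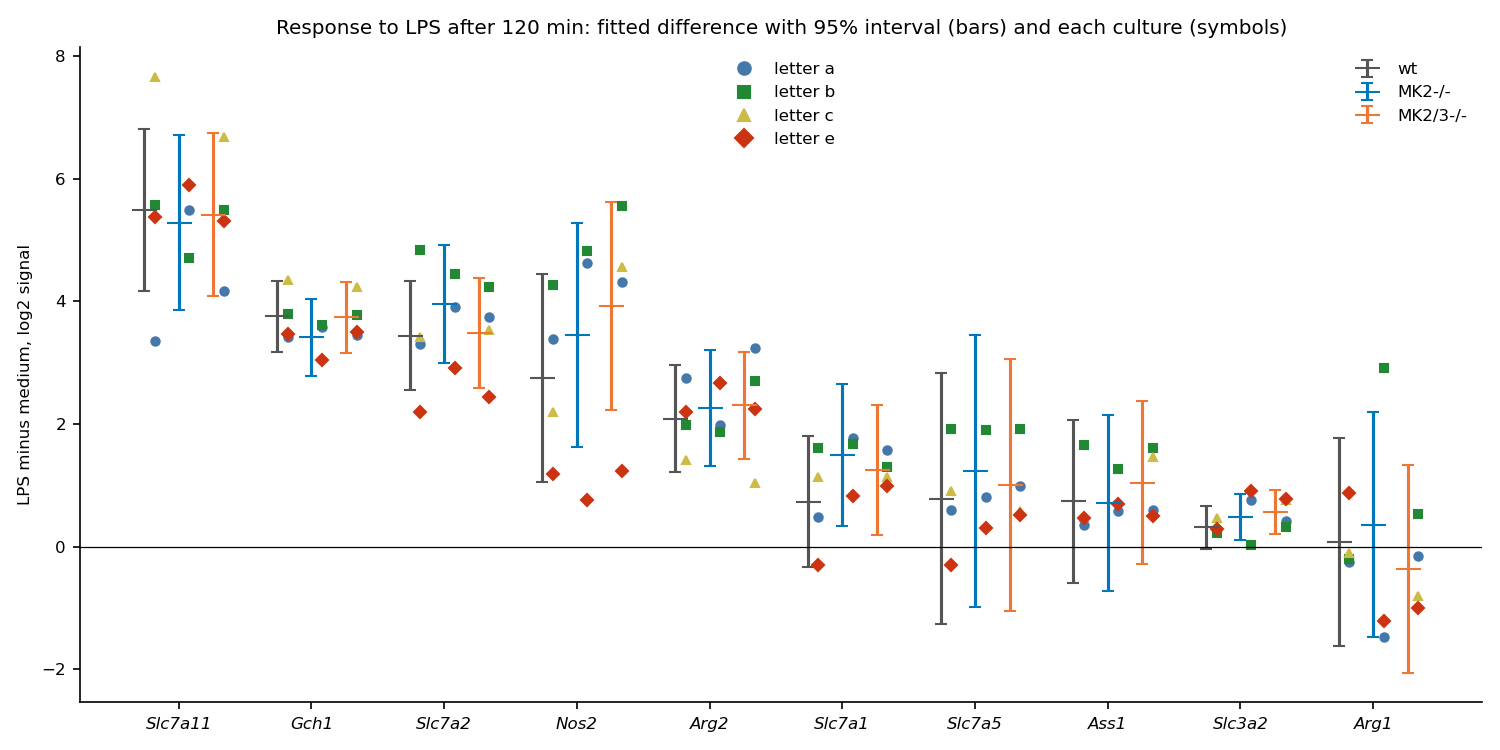
Difference in log2 signal between LPS and medium (vertical axis) for the 10 genes. Horizontal marks with bars are the fitted differences with 95% intervals in wt, MK2-/- and MK2/3-/- BMDM, and symbols are the 11 cultures with both treatments by letter. *Slc7a11*, *Gch1*, *Slc7a2*, *Nos2* and *Arg2* lie above 0 in all cultures, with *Nos2* of the letter e at 0.77 to 1.23.

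**Figure D3:**
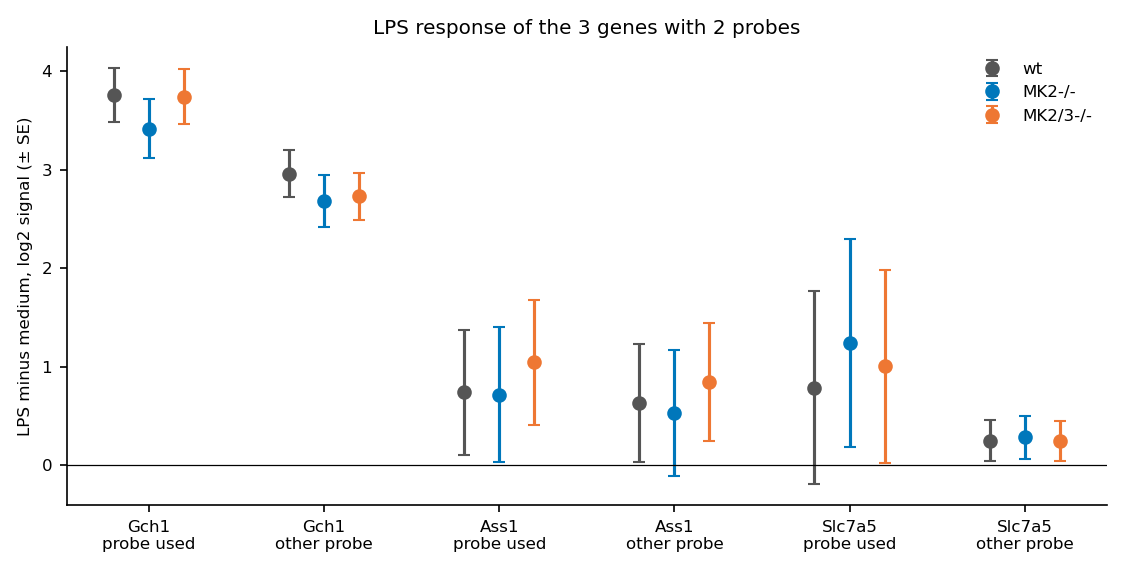
Difference in log2 signal between LPS and medium (vertical axis, with SE) for the probe used and the other probe of *Gch1*, *Ass1* and *Slc7a5* in 3 genotypes. Both probes of *Gch1* lie between 2.68 and 3.76, and the other probe of *Slc7a5* lies at 0.25 to 0.28.

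Promoter sequences of RefSeq on GRCm38.p6 were at hand for 5 of the 10 genes (*Ass1*, *Gch1*, *Slc7a1*, *Slc7a11* and *Slc3a2*) in 6 windows, as *Slc7a1* has 2 listed starts. The 250 bases before the start of *Slc7a11*, the gene with the largest rise, at a start that RefSeq lists inside the span of the gene, and of *Gch1*, which rose with the smallest SE of the 5 genes that rose in each genotype, are shown. In *Slc7a11* (chr3:50443614-50443863, minus strand) capitals mark both copies of TGATGCAA, the amino acid response element that ATF4 is known to bind. They face each other, at bases -66 to -59 and -47 to -40 from the start. In *Gch1* (chr14:47189414-47189663, minus strand) capitals mark the GC boxes (GGGCGG) and the CCAAT box.
Slc7a11: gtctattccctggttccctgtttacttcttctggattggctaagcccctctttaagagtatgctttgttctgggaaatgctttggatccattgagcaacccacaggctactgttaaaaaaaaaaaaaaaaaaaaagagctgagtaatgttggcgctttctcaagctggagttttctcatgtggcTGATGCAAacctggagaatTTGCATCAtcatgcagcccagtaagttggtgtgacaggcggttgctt
Gch1: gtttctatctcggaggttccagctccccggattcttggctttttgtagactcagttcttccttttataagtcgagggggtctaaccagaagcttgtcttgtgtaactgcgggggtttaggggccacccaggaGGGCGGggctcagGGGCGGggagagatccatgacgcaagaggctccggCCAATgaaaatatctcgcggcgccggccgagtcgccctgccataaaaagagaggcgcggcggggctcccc

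TGATGCAA, on either strand, occurs in 0.791% of the 32851 promoter windows of this length and more than once in 0.00609% of them, and among the 6 windows of the listed genes *Slc7a11* alone held it. GGGCGG was also found in *Ass1*, *Slc3a2* and *Slc7a1*, and CCAAT on the other strand in *Slc7a11*. GGGCGG occurs in 32.7% and CCAAT in 33.8% of all windows. The antioxidant response element (TGACNNNGC, 10.2% of windows) and the AP-1 site (TGANTCA, 6.75%) were found in 1 of the 2 windows of *Slc7a1*, the E-box (CACGTG, 6.02%) in that of *Ass1*, and the GAS element (TTCNNNGAA, 7.02%) in those of *Slc7a11* and of *Slc7a1*. TATAAA (12.4%) was present in *Gch1* and in the other window of *Slc7a1*. The CRE (TGACGTCA, 1.55%), a kB-like motif (4.65%) and the ISRE (2.98%) had no match in the 6 windows. Motifs were searched on both strands, matches of different motifs did not overlap in these windows, and these matches describe letters and not binding.

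Other genes of these pathways were read against all genes tested, of which 8.16% rose and 8.78% fell in wt BMDM. Of 23 measured genes of arginine and polyamine metabolism, 3 rose in wt BMDM and none fell, with a median of -0.07 on the log2 scale. These were *Odc1*, the ornithine decarboxylase that opens polyamine synthesis (1.33 ± 0.28 SE; limma, adjusted p = 0.00165), the spermine oxidase *Smox* (0.58 ± 0.17; adjusted p = 0.0242) and the spermine synthase *Sms* (0.56 ± 0.17; adjusted p = 0.0293). *Odc1* and *Smox* also rose in MK2-/- (1.00 and 0.90) and MK2/3-/- BMDM (1.36 and 0.98). With the brightest probe of each gene none of these 3 was called in wt BMDM, where *Odc1* had 0.53, *Smox* 0.46 and *Sms* 0.02 (limma, adjusted p = 0.179, 0.110 and 0.964), nor was *Odc1* in MK2-/- (0.61; adjusted p = 0.132) or MK2/3-/- cells (0.49; adjusted p = 0.170). With the culture as a block, 5 of the 23 were called in wt BMDM, 3 higher and 2 lower.

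None of the 7 other genes of tetrahydrobiopterin metabolism rose with *Gch1*. *Spr*, the sepiapterin reductase that completes the cofactor, fell by 0.53 in wt (limma, adjusted p = 0.0427) and by 0.75 in MK2/3-/- cells (adjusted p = 0.00311), and its difference in MK2-/- BMDM was -0.28 (adjusted p = 0.362). In wt the call of *Spr* was lost with 75th percentile scaling (-0.40; limma, adjusted p = 0.164) and with normexp background correction (-0.43; adjusted p = 0.0800), and without LPS replicate 2 or 3 or medium replicate 1, 2 or 3 (adjusted p from 0.0702 to 0.129).

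Of 22 other amino acid carriers, 3 rose and 4 fell in wt BMDM. *Slc7a7*, a light chain of SLC3A2 that exports arginine in exchange for neutral amino acids, rose by 2.11 ± 0.36 (SE; limma, adjusted p = 0.000268), by 2.33 in MK2-/- and by 2.26 in MK2/3-/- cells. The glutamine carrier *Slc38a1* rose by 1.39 ± 0.17 (adjusted p = 7.62e-06) in wt, by 1.43 in MK2-/- and by 1.99 in MK2/3-/- cells. The neutral amino acid carrier *Slc1a4* rose by 1.05 ± 0.34 (adjusted p = 0.0373) in wt BMDM, a call that was lost with normexp background correction (limma, adjusted p = 0.0657).

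Of 15 genes of the amino acid response, which ATF4 is known to drive, 3 rose and 1 fell in wt BMDM. *Nupr1*, a stress-induced nuclear protein, rose by 3.42 ± 0.45 (SE; limma, adjusted p = 1.51e-05) and *Cebpb*, a transcription factor, by 0.78 ± 0.25 (adjusted p = 0.0401), the latter without passing after normexp background correction (limma, adjusted p = 0.0900). *Sesn2*, a stress-induced inhibitor of mTORC1, fell by 1.82 (adjusted p = 0.000204). *Atf4* itself, the third that rose and chosen for mention after its values were seen, had 0.72 in wt (adjusted p = 0.0456), 1.04 without MK2 (adjusted p = 0.00712) and 0.41 without both kinases (adjusted p = 0.249). With its brightest probe *Atf4* was not called in wt (0.60; limma, adjusted p = 0.0737) or without MK2 (0.41; adjusted p = 0.281), and without the third MK2/3-/- LPS array it passed in MK2/3-/- cells (0.69; adjusted p = 0.0169).

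Of 12 genes of glutathione and the NRF2 response, 1 rose and 1 fell in wt BMDM, beside *Slc7a11*. The thioredoxin reductase *Txnrd1* rose by 1.75 ± 0.20 (SE; limma, adjusted p = 2.43e-06), and *Gclc*, the catalytic subunit of the enzyme that starts glutathione synthesis, fell by 0.62 (adjusted p = 0.0256). *Gclc* was not called with 75th percentile scaling (limma, adjusted p = 0.0778) or in a fit of the wt arrays alone (adjusted p = 0.117), nor without LPS replicate 2 or 3 or medium replicate 1, 2 or 4 (adjusted p from 0.0568 to 0.102).

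The question of the study, whether MK2 and MK3 shape the LPS response, was put to the 10 genes in 9 further comparisons. None of the 10 passed the test between genotypes after LPS, in medium, or in the LPS response itself. Few genes did so over the whole array: after LPS 0.0302% did for MK2-/- against wt, 1.64% for MK2/3-/- against wt and 0.158% for the knockouts against each other, in medium 0.00754%, 0.0792% and 0.0453%, and in the LPS response 0.00377%, 0.0113% and 0%. At an unadjusted limma p below 0.05 none of the 10 differed after LPS or in the response, and 1 differed in medium, which was *Slc7a1* between MK2-/- and wt BMDM with -1.23 (p = 0.0376, adjusted p = 1.00, limma; exact permutation p = 0.229). Of all genes, 7.5%, 13.5% and 7.94% had such a p after LPS, 3.4%, 4.66% and 3.62% in medium, and 1.92%, 4.55% and 2.89% in the response, in the same order of genotype pairs. This result depends on the test. By exact permutation, also unadjusted, *Slc7a11* had p = 0.0286 between MK2-/- and wt BMDM after LPS.

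After LPS the largest difference in favour of MK2-/- BMDM was that of *Slc7a11*. Its arrays (11.90, 11.68, 11.39 and 11.56) were all above those of wt BMDM (10.44, 11.39, 10.92 and 10.07, the closest pair differing by less than the second decimal) and above those of MK2/3-/- BMDM (11.11, 11.33, 10.63 and 10.66). The difference from wt was 0.93 (95% interval -0.40 to 2.26; limma, adjusted p = 0.751; exact permutation p = 0.0286, the smallest the design allows), and from MK2/3-/- BMDM 0.70 on the log2 scale in the same direction (limma, adjusted p = 0.865). It was the only one of the 10 without overlap in these comparisons, in which 3.73% and 5.15% of all genes had none. *Slc7a11* and *Arg2* are among the genes that the study had picked from these arrays by their LPS induction and by genotype, so that their values are not independent of the choice. In medium the *Slc7a11* signal of MK2-/- BMDM exceeded that of wt by 1.14 (-0.30 to 2.57), and the difference in LPS response was -0.20 (-2.16 to 1.75; limma, adjusted p = 1.00). Of the listed genes of related pathways, *Slc38a1* (0.70; adjusted p = 0.0466) and *Atf3*, a stress-induced transcription factor (1.40; adjusted p = 0.00886), were higher in MK2/3-/- than in wt BMDM after LPS, and no other listed gene passed a test between genotypes. The call of *Slc38a1* was lost with 75th percentile scaling (limma, adjusted p = 0.0642), with the brightest probe (0.43; adjusted p = 0.315) and in a fit of these 2 genotypes' LPS arrays alone (adjusted p = 0.196), and when any of these 8 arrays but the second of wt was left out. *Atf3* was not called in that last fit (adjusted p = 0.176) or without the letters a, b or e (adjusted p = 0.0686, 0.0510 and 0.138).

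The intervals give the sizes of difference that remained possible under this fit. Each uses 1 spread per gene, pooled over all groups of both treatments. The arrays of *Nos2* spread more after LPS than in medium, so its intervals after LPS may be too narrow. Those of *Arg2* spread less after LPS, so its intervals may be too wide. For *Gch1* after LPS the difference from wt was 0.19 (-0.39 to 0.76) in MK2-/- and 0.27 (-0.30 to 0.85) in MK2/3-/- cells, and for *Slc3a2* 0.06 (-0.29 to 0.42) and 0.29 (-0.06 to 0.65). For *Nos2* it was 0.64 (-1.05 to 2.34) and 0.98 (-0.72 to 2.67), and for *Slc7a5* -0.68 (-2.74 to 1.37) and -0.50 (-2.55 to 1.55). A difference of 2 log2 units in *Nos2* between genotypes lies within these intervals. *Arg2* was 0.36 (-0.51 to 1.23) higher in MK2-/- and 0.65 (-0.23 to 1.52) higher in MK2/3-/- cells without passing the test (limma, adjusted p = 0.881 and 0.540).

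**Figure D4:**
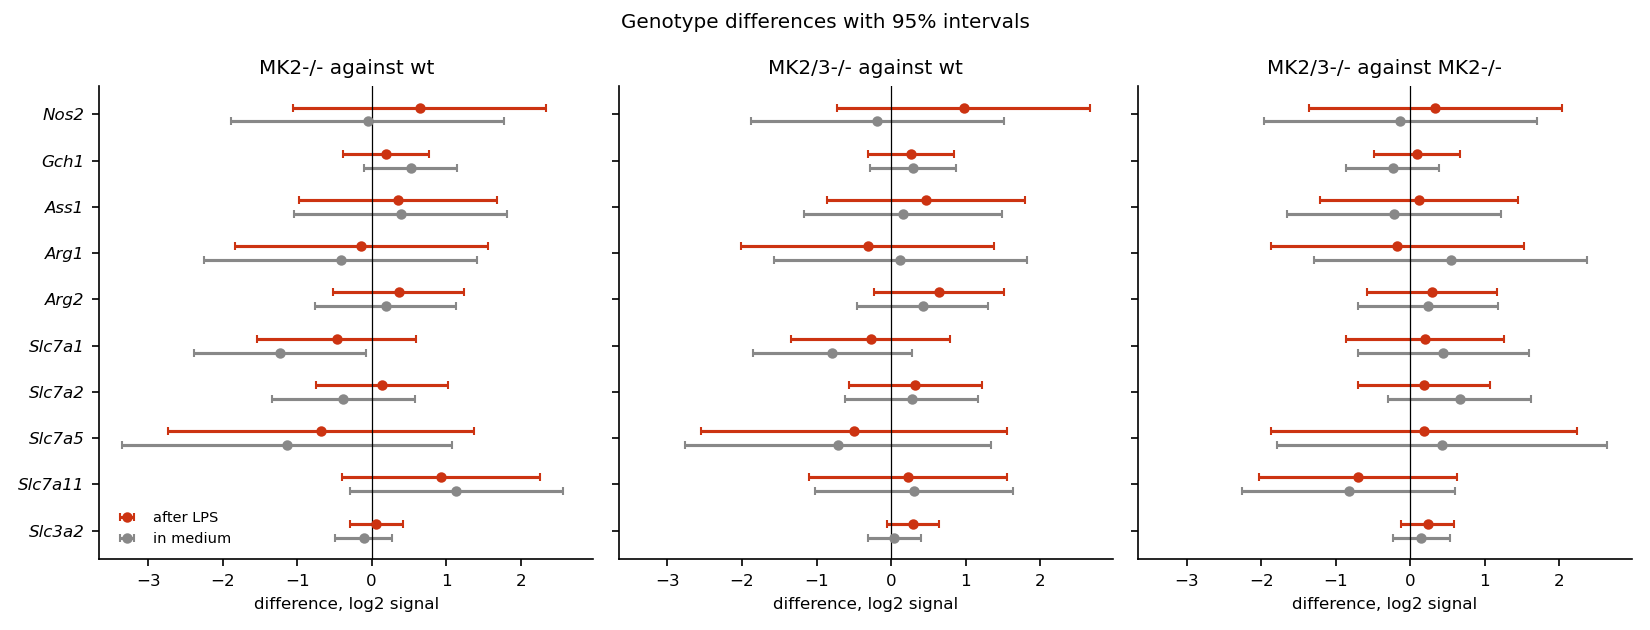
Differences in log2 signal between genotypes (horizontal axis) for the 10 genes, after LPS and in medium, with 95% intervals of the fit. The intervals of *Gch1* and *Slc3a2* are the narrowest, those of *Slc7a5* reach furthest from 0, and 1 interval, that of *Slc7a1* in medium between MK2-/- and wt BMDM, does not include 0.

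The signals of several genes differed between the letters of the arrays. In a test of the letter beside the 6 group means, chosen after the values were seen, 5 of the 10 genes passed, compared with 14.7% of all genes (limma F test, adjusted). *Ass1* lay above its group mean on all 12 arrays with the letters a and b, and below it on all 11 with c and e (adjusted p = 0.000214). The probe used for *Slc7a5* was on average 1.42 above its group mean on the arrays with the letter e (adjusted p = 0.0123). On those with the letter b it was 1.16 below. With this probe the letter e exceeded the letter b in every group. The second probe of *Slc7a5* did not share this order. Its signal was higher with e than with b in wt cells after LPS and in MK2-/- cells in medium. In all other groups it was lower, and a letter effect on the second probe was not tested. *Slc7a1* was above its group mean on all 6 arrays with the letter e, by 0.82 on average (adjusted p = 0.0307). *Gch1* (adjusted p = 0.0246) was above on all 6 with the letter b, and *Arg2* (adjusted p = 0.0484) on all 5 with the letter c. *Nos2* did not pass this test, in which treatments are pooled (adjusted p = 0.125). Letter and slide column cannot be told apart, and the letter is not a day or a batch by the labels.

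Markers of fibroblasts and stroma differed between cultures as well. *Col1a1* ranged from 6.32 to 14.36 and *Col1a2* from 8.69 to 16.35 on the log2 scale, both well above background on all arrays, whereas *Pdgfra* was so on 2 and *Pdgfrb* on 22. The mean of these 4 markers was 9.18 to 10.18 on the arrays with the letter e, 8.10 to 8.92 with c, 5.95 to 7.62 with b and 4.72 to 11.29 with a, where both wt arrays held the highest values. *Pdgfrb* was higher after LPS than in medium in every culture with both treatments but the wt culture of the letter a. In the MK2/3-/- culture of the letter a it was 1.79 in medium and 7.07 after LPS. The mean of the 4 markers thus also moved with treatment. The mean of the macrophage markers was 13.45 to 14.45 on all arrays. In a fit of every gene on the stroma mean beside the group means, also chosen after the values were seen, *Slc7a5* rose by 0.74 ± 0.09 (SE) per log2 unit of the stroma mean (limma, adjusted p = 2.45e-05) and *Slc7a1* by 0.30 ± 0.07 (adjusted p = 0.0219), 2 of the 10 compared with 5.69% of all genes. As both arrays of a culture share its cells, the fit was repeated within each treatment. *Slc7a5* passed with 0.78 ± 0.14 in medium (11 arrays; limma, adjusted p = 0.0248; 1.78% of all genes) and with 0.68 ± 0.12 after LPS (12 arrays; adjusted p = 0.0184; 1.95% of all genes), and *Slc7a1* did not (adjusted p = 0.218 and 0.210). The slopes of *Nos2* and *Ass1* over all arrays were -0.25 (adjusted p = 0.356) and -0.21 (adjusted p = 0.333). Within treatments that of *Nos2* was 0.02 ± 0.03 in medium and -0.73 ± 0.28 after LPS (limma, adjusted p = 0.778 and 0.209). That of *Ass1* was -0.14 ± 0.15 and -0.32 ± 0.19 (adjusted p = 0.728 and 0.383). The *Slc7a5* slopes are those of the probe used. Its second probe, which lay between 5.98 and 7.11 on all arrays, was not fitted on the stroma mean. Whether RNA of stromal cells contributed to the *Slc7a5* signal was not tested.

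**Figure D5:**
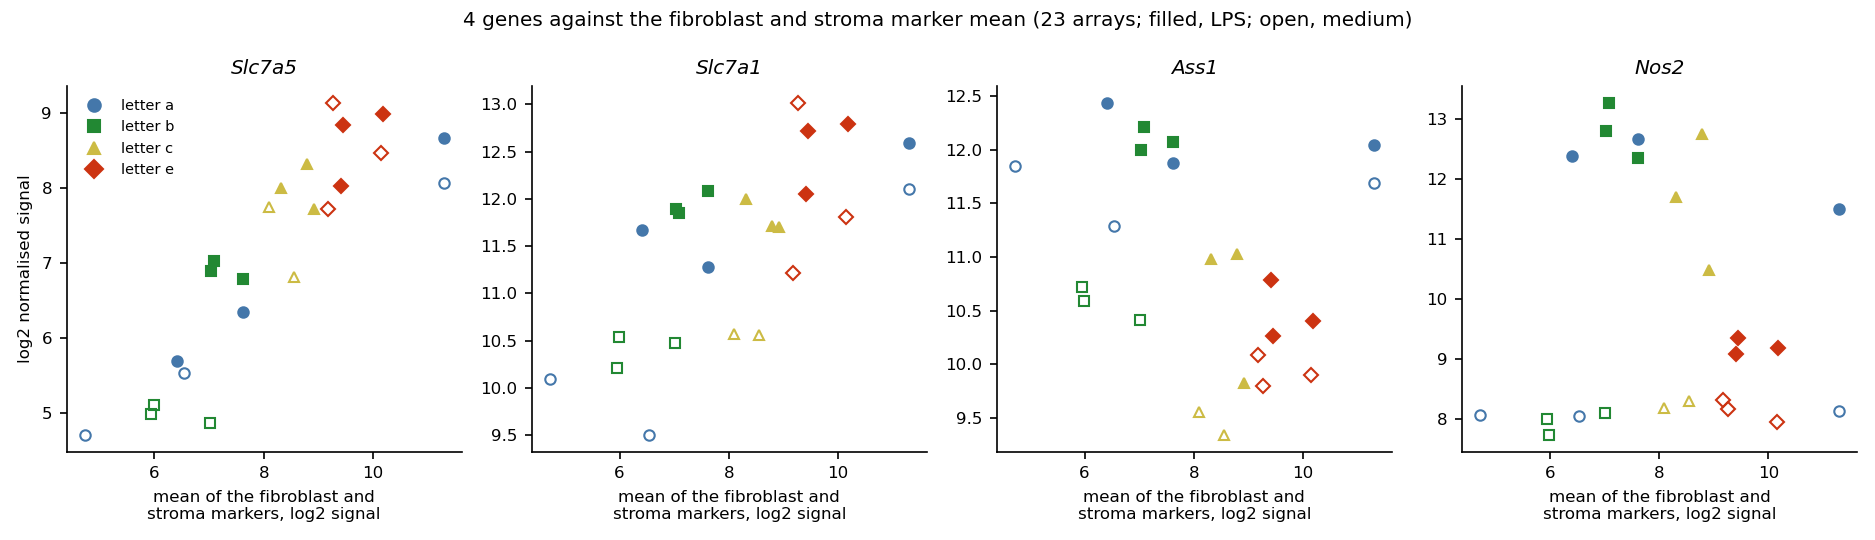
Log2 signal of *Slc7a5*, *Slc7a1*, *Ass1* and *Nos2* (vertical axis) against the mean log2 signal of 4 fibroblast and stroma markers (horizontal axis) on 23 arrays, by letter, with filled symbols for LPS and open ones for medium. The probe used for *Slc7a5* climbs with the markers, with a slope of 0.74, and *Nos2* after LPS is low on the arrays with the letter e.

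The genes most like 4 of the members over the 23 arrays were sought among the 15998 genes that at least 1 group had well above background on each of its arrays. For *Nos2* these were a gene known here by the accession NM_001081024 (Pearson r = 0.982), *Trim21* (0.975) and *Dcp1a* (0.967), and for *Slc7a11* *Pik3r5* (0.982), *Clec4e* (0.981) and *Plscr1* (0.981). For *Slc7a2* they were *Ubxn2a* (0.981), a gene with the symbol AF004107 (0.977) and *Sbds* (0.977), and for *Arg2* *Sh3d21* (0.934), *Gmeb2* (0.933) and *Ifih1* (0.930). All arrays share the difference between LPS and medium, which gives any pair of induced genes a high correlation.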

How the data were processed

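Total RNA was hybridised in 1 colour to SurePrint G3 Mouse Gene Expression arrays, 1 sample per array. The authors extracted spot intensity with Agilent Feature Extraction (version 11.0.1.1, per the file headers), which subtracts background. The deposited series table holds log2 values, which the authors quantile normalised and centred on each probe's median, and served as an alternative.

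The deposited processed intensity was taken to log2 and quantile normalised, without control spots and outlier spots. Spots of a probe were averaged, and the probe with the largest LPS induction in wt BMDM stood for its gene, which favours higher values after LPS for all genes with several probes. Probes were named through their RefSeq accession. All 23 arrays entered 1 limma fit (version 3.58.1, R 4.3.3) with 6 group means, and p-values were Benjamini-Hochberg adjusted over 26512 genes and called at 0.05. The fit was tested on simulated data with independent arrays and 1 spread per gene in all groups. Shared cultures or letters and a spread that differs with treatment were not part of that simulation. Single differences were also given an exact two-sided permutation test over arrays, whose smallest p is 0.0286. The number of arrays limits the precision. Groups came from the labels, and letters from the array names. The letters pair the samples, since medium and LPS arrays of 1 genotype and letter share the age label and were taken as 1 culture. Replicate numbers do not always do so, as the third MK2-/- medium array carries the letter e and the third MK2-/- LPS array the letter c. The correlation of the deviations of paired arrays from the group means was 0.0626 to 0.561 over all genes, above 0.1 in 10 of 11 cultures. Between arrays of the same letter and another genotype it was -0.158 to 0.480, above 0.1 in 29 of 44 pairs. These correlations therefore do not tell a shared culture from a shared letter or slide column. The study describes its repeats as independent experiments.

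The genes and lists were chosen with earlier results of these data known. All 10 genes, *Mapkapk2* and *Mapkapk3* were to be named, and of each of 5 pathway lists at most 3 called genes with the largest change. Alternatives were 75th percentile scaling, normexp background correction (offset 50), the deposited log2 values, a floor of 5, a filter on dim probes, other probe rules, the methods' t-test, culture or letter as a block, and leaving out arrays. Promoters are from RefSeq (GRCm38.p6). Figures were drawn with matplotlib (version 3.10.9).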

Additional observations from a re-analysis of the deposited data

Results flagged for a closer look

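After LPS, the *Slc7a1* signal of the fourth MK2/3-/- array was 12.79 on the log2 scale, far above the nearest array of its group at 11.85. Its gap made up 0.841 of the range of the group. It was 1 of 50 groups of 4 arrays tested in this way, and chance sets apart about 5% of such groups. The array carries the letter e, and *Slc7a1* was above its group mean on all 6 arrays of this letter.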

How the results depend on the processing

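The number of the 10 genes called between LPS and medium ranged over the 15 other settings from 4 to 6 in wt, from 3 to 8 in MK2-/- and from 5 to 8 in MK2/3-/- BMDM. In MK2-/- BMDM it was 3 with the methods' t-test on linear values and 8 with the replicate block of the letter. These counts are given without the share of all genes called under the same setting. As that share can change with the setting too, the counts describe the settings and not the 10 genes. With single arrays left out it was 4 to 5, 5 to 6 and 5 to 7. Between genotypes it was 0 under every setting run. Over the single values of the 10 genes, 1708 of 1728 kept their call under other settings, 5 lost it and 15 gained it, and with arrays left out 1615 of 1630 kept it, 10 lost it and 5 gained it. No called difference changed its sign. Values that were never called count as kept, although 29 and 190 of them changed sign.

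Pairing by culture as a replicate block raised the number called from 5 to 7 in MK2-/- and from 6 to 7 in MK2/3-/- BMDM, by *Slc7a1* (adjusted p = 0.0233 and 0.0280, limma) and, in MK2-/- BMDM, *Slc3a2* (adjusted p = 0.0286), and it changed no other call of the 10 genes. Of all genes, 10.8% in MK2-/- and 14.7% in MK2/3-/- BMDM rose with this block, compared with 8.41% and 11.9% without it. The block moved the number called from 3 to 5 among the genes of arginine and polyamine metabolism in wt BMDM.

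*Nos2* lost its call with the methods' t-test on linear values in each genotype (adjusted p = 0.232, 0.230 and 0.125), and on log2 values in MK2-/- BMDM (adjusted p = 0.0952). *Slc7a2* lost it with the linear t-test in MK2-/- BMDM (3.92; adjusted p = 0.104). *Nos2* also lost its call in wt BMDM without the letters a, b or c (limma, adjusted p = 0.172, 0.176 and 0.107). In MK2-/- BMDM *Nos2* lost it without a or b (limma, adjusted p = 0.131 and 0.0964), whereas *Slc7a2* kept its call in all of these fits. The cause was not tested. Scaling to the 75th percentile moved the median LPS difference of all genes to 0.12 in wt and 0.18 in MK2-/- BMDM, and *Slc3a2* then passed in both (0.66 and 0.89; adjusted p = 0.00464 and 0.000601, limma). *Slc3a2* in MK2/3-/- BMDM lost its call without the letters c or e (adjusted p = 0.0908 and 0.0941). Signals near background limit *Arg1*. Of the values of the other named genes, 2706 of 2784 kept their call under other settings and 2501 of 2608 with arrays left out, with 69 and 103 lost and 0 reversed. In wt BMDM the calls of *Smox* (LPS replicates 1 and 3, medium replicates 3 and 4), *Sms* (LPS 1, 2 and 4, medium 2 and 3), *Slc1a4* (LPS 1, 2 and 3, medium 1 and 4), *Atf4* (LPS 1, 3 and 4, medium 2 and 3) and *Cebpb* (all but LPS 2) were each lost when 1 of these arrays was left out (adjusted p from 0.0509 to 0.179, limma), as was *Odc1* in MK2-/- BMDM without LPS replicate 2 or 4 or medium replicate 1 or 2 (adjusted p from 0.0528 to 0.0826).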

Other observations

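Neutrophil markers also differed between the letters, with a mean log2 signal of 7.53 to 8.85 on the arrays of the letter b and 5.62 to 6.84 on those of the letter c. None of the 10 genes passed a test of its slope on this mean beside the group means (limma, adjusted), compared with 0.181% of all genes. The smallest adjusted p of the 10, by limma over 23 arrays, was that of *Gch1* with a slope of 0.20 (adjusted p = 0.330), which was also the only 1 with an unadjusted p below 0.05.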
